A study of Mus musculus with 6 samples.

Results

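The histone chaperones of replicating chromatin described here are 10 genes (Chaf1a, Chaf1b, Asf1a, Asf1b, Nasp, Hells, Uhrf1, Slbp, Ssrp1 and Supt16). Their probes were found by matching the accession of each non-control probe to the RefSeq gene table, which gave 15 of 55681 probes and 10 of 19988 named genes. There were 5 members with 2 probes and 5 with 1. The samples were S-phase cells sorted from the embryonic cortex (dorsal telencephalon) of C57BL/6J mice at embryonic day 14.5. All embryos were heterozygous for a GFP knock-in at the Tis21 (Btg2) locus, so cells of both groups carried 1 copy of the GFP allele and the groups differ by the GFP gate, not by genotype. Tis21-GFP is a reporter of progenitors committed to neuron production, and the series asks how S phase differs upon that commitment. Cells with a DNA content between that of unreplicated and fully replicated nuclei were sorted, as Tis21-GFP positive (3 arrays) or Tis21-GFP negative (3 arrays). Each replicate pooled 30 hemispheres of 15 embryos, gave about 200000 sorted cells and was hybridised from 50 ng of total RNA, and only the 3 experiment sets that the authors judged best were kept, by a criterion not given in the sources used here. Arrays are named by gate and replicate number, such as negative 1.

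When a replication fork passes, nucleosomes ahead of it are taken apart and new ones are laid down behind it. Asf1 and Nasp carry newly made histones H3 and H4, chromatin assembly factor 1 (Chaf1a and Chaf1b with Rbbp4) deposits them on DNA at the sliding clamp Pcna, and the FACT complex (Ssrp1 and Supt16) handles histones H2A and H2B. Uhrf1 recognises hemimethylated DNA after the fork and brings in the methyltransferase Dnmt1, and Hells is a chromatin remodeller that DNA methylation also needs. Slbp binds the stem-loop that ends replication-dependent histone mRNAs, so it governs the supply of the histones that the chaperones carry. These genes are known to be active in cycling cells, the cortical progenitors among them.

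All 15 probes were well above background on all 6 arrays. Values below are scaled log2 signals, that is, log2 processed intensity minus the 75th percentile of the same array, and differences are Tis21-GFP positive minus negative. A probe was called when limma's adjusted p, taken over all 28922 probes tested, was under 0.05. Percentiles of the arrays lay between 213 and 341 intensity units, and correlations across genes were 0.983 to 0.992 within groups and 0.954 to 0.972 across them. Btg2, the sorted locus, was higher in positive cells by 0.77 ± 0.18 (SE, n = 3 per group, adjusted p = 0.0258 by limma), a call lost in 7 of 17 alternatives. Intermediate progenitor markers were higher in 6 of 6 genes and radial glial markers lower in 8 of 9. Of all named genes tested, 9.13% were higher and 11.3% lower. Each of these markers was tested, so each was well above background in at least 1 group. The lists were chosen with earlier results of these data known, so the counts describe the sorted cells and are not a check of the sort.

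Of the 10 member genes, each taken at its brightest probe, 5 were higher in positive cells and 0 were lower. Those that rose were Asf1b, Chaf1b, Slbp, Nasp and Chaf1a, by 1.06, 0.99, 0.72, 0.67 and 0.57 on the log2 scale. Over all 13136 named genes tested, 9.13% were higher and 11.3% lower, 20.4% in all. Of all calls over probes, 45.6% were higher in positive cells, a share of 65.2% with median centring, 24.8% with the percentile over probes detected on every array and 56.2% with normexp background. Median centring also moved the median of all probes from 0.09 to 0.27, and the percentile over detected probes moved it to -0.09. Counted by probe, 7 of 15 were higher and 0 lower, against 7.52% higher and 8.96% lower among all probes tested (16.5% in either direction). The groups did not overlap for 14 of the 15 probes, all with the positive arrays higher, against 24.6% of all probes with the positive arrays higher and 16% with them lower. Among the genes 9 of 10 did not overlap, against 28.2% of named genes higher and 18.6% lower. The median difference of the member genes was 0.50, beside 0.115 for all named genes. All 15 probe differences were above 0, although those of Hells and of the brighter Ssrp1 probe turned negative under quantile normalization, in the deposited processed values and when the percentile was taken over detected probes alone. Overlap was counted with the main scaling only. Under the settings just named, the positive arrays of that Ssrp1 probe cannot all have stood above the negative ones. The number of member genes called was 3 under quantile normalization, 3 in the deposited processed values and 2 with no filter on dim probes. It was 3 when negative 1 or positive 1 was left out and 2 when negative 3 was. In RNA from a sorted population, fewer cells expressing a gene and less RNA per cell cannot be told apart.

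**Figure D1:**
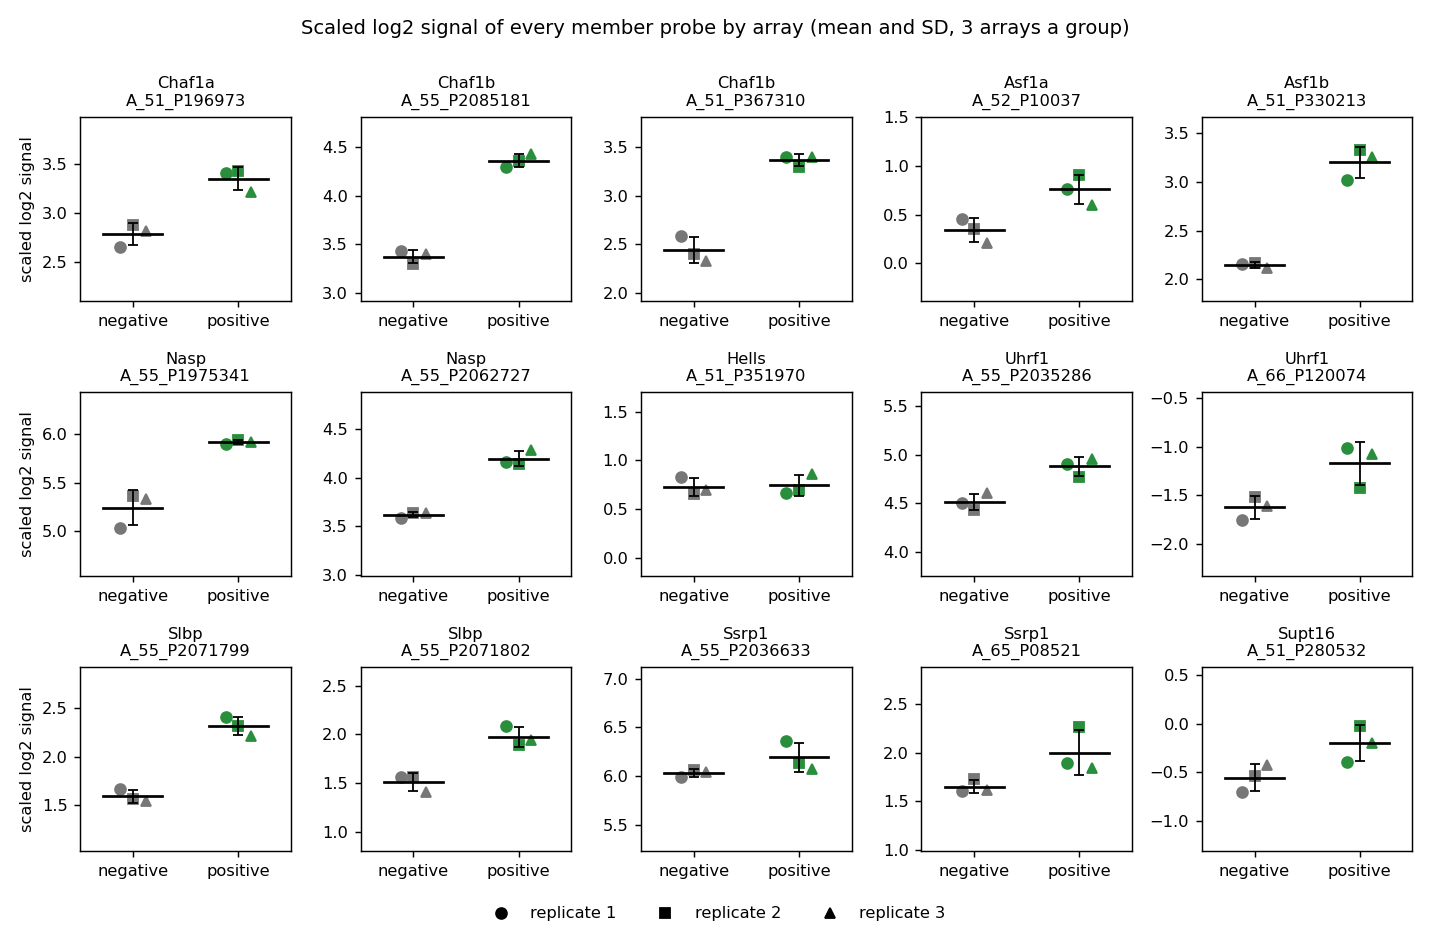
Scaled log2 signal (vertical axis, each panel spanning the same range) of the 15 member probes on the 3 Tis21-GFP negative and 3 Tis21-GFP positive arrays, with bars for the group mean and SD and a symbol per replicate number. The positive arrays lie above every negative array in 14 panels, and only the Hells panel overlaps.

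Asf1a and Asf1b are paralogs that both hand H3 and H4 to downstream assembly factors, and Asf1b is the copy known to follow proliferation. For Asf1b the negative arrays read 2.16, 2.17 and 2.11 and the positive arrays 3.02, 3.33 and 3.25 (replicates 1 to 3). Every positive array was above every negative one, by far more than the spread within a group. Asf1b was higher by 1.06 ± 0.14 (SE, n = 3 per group), a 2.08-fold difference (adjusted p = 0.00306), and 2.67% of named genes had a larger difference. For Asf1a the negative arrays read 0.45, 0.35 and 0.21 and the positive arrays 0.76, 0.91 and 0.60. The groups did not overlap, but the lowest positive array stood close to the highest negative one, and the difference of 0.42 ± 0.15 did not pass (adjusted p = 0.0959). The 95% interval of that difference ran from 0.07 to 0.77. To ask whether the paralogs differed unequally, Asf1b was set against Asf1a within each array, which cancels any scaling of the array. Relative to its mean over the negative arrays, this within-array difference was -0.10, 0.01 and 0.10 in negative and 0.45, 0.62 and 0.84 in positive cells. The groups did not overlap. The shift of 0.64 had a two-sided exact permutation p of 0.10, the smallest that 3 arrays against 3 allow, and 0.133 adjusted over 4 member pairs. For every pair of members, the arrays were permuted freely over 20 arrangements, so the pairing by replicate number was not used.

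Chaf1a and Chaf1b encode the large and the middle subunit of chromatin assembly factor 1. Chaf1b has 2 probes, and the brighter one (A_55_P2085181) read 3.43, 3.30 and 3.40 on negative and 4.29, 4.36 and 4.43 on positive arrays. Its difference was 0.99 ± 0.13 (adjusted p = 0.00296), a 1.98-fold change. The second probe (A_51_P367310) read 2.58, 2.40 and 2.33 on negative and 3.40, 3.30 and 3.40 on positive arrays. It gave 0.93 ± 0.14 (adjusted p = 0.00482), so both probes placed all positive arrays above all negative ones at nearly the same size. Chaf1a read 2.65, 2.87 and 2.82 on negative and 3.41, 3.43 and 3.22 on positive arrays. The groups did not overlap and Chaf1a was higher by 0.57 ± 0.14, or 1.49-fold (adjusted p = 0.0344). Chaf1a lost its call in 10 of 17 alternatives, among them quantile normalization (0.37, adjusted p = 0.0931), and the omission of any array other than positive 3 ended it, whereas Chaf1b and Asf1b were called in all 17. Chaf1a set against Chaf1b within arrays read -0.18, 0.17 and 0.01 in negative and -0.29, -0.34 and -0.62 in positive cells. The shift was -0.41 with no overlap between groups, at the smallest p that free permutation of the arrays allows (exact permutation p = 0.10, 0.133 adjusted over the 4 pairs).

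Nasp, a carrier that stores soluble H3 and H4, was called on both of its probes, and both calls depended on the setting. The brighter one (A_55_P1975341) read 5.04, 5.36 and 5.33 on negative and 5.90, 5.93 and 5.92 on positive arrays, with a difference of 0.67 ± 0.15 (adjusted p = 0.0214). The other (A_55_P2062727) read 3.59, 3.64 and 3.64 on negative and 4.16, 4.14 and 4.28 on positive arrays, with a difference of 0.57 ± 0.13 (adjusted p = 0.0255). Positive arrays were tightly grouped on the brighter probe, and negative replicate 1 was the lowest of all 6. The call on the brighter probe was lost when negative 1 (0.57, adjusted p = 0.0851), positive 1 (0.68) or negative 3 (0.72) was left out, and with quantile normalization (0.38, adjusted p = 0.0867), in the deposited processed values (0.38, adjusted p = 0.0881) and with no filter on dim probes (adjusted p = 0.0898). Nasp A_55_P2062727 lost its call in 9 of 15 alternatives, among them quantile normalization (0.34, adjusted p = 0.131), the deposited processed values (0.33, adjusted p = 0.136) and the omission of any array other than positive 2.

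Slbp, the histone mRNA stem-loop binding protein, was called on 1 of its 2 probes. The brighter probe (A_55_P2071799) read 1.67, 1.56 and 1.54 on negative and 2.40, 2.32 and 2.22 on positive arrays. It was higher by 0.72 ± 0.14, or 1.65-fold (adjusted p = 0.0121). The call was lost when negative 3 was left out (0.70, adjusted p = 0.0604) and with no filter on dim probes (adjusted p = 0.0605). The dimmer probe (A_55_P2071802) read 1.56, 1.56 and 1.40 on negative and 2.09, 1.89 and 1.95 on positive arrays. It did not overlap between groups either, but its difference of 0.47 ± 0.14 did not pass (adjusted p = 0.0588). Slbp A_55_P2071802 passed with median centring (0.65, adjusted p = 0.0377) and with a variance trend and robust fit (adjusted p = 0.0293). Both probes cite the same transcript record, so the gap between 0.72 and 0.47 is between probes of 1 accession.

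The FACT subunits did not pass. Ssrp1, which contacts nucleosomal DNA through its HMG box, read 5.98, 6.06 and 6.04 on negative and 6.36, 6.14 and 6.07 on positive arrays with its brighter probe (A_55_P2036633). The positive arrays were above the negative ones by a narrow margin, and the difference was 0.16 ± 0.14 (adjusted p = 0.46, 95% interval -0.17 to 0.49). The dimmer Ssrp1 probe (A_65_P08521) read 1.60, 1.73 and 1.62 on negative and 1.89, 2.27 and 1.84 on positive arrays, a difference of 0.35 ± 0.16 (adjusted p = 0.176). Supt16, the histone-binding large subunit, read -0.71, -0.53 and -0.42 on negative and -0.39, -0.02 and -0.19 on positive arrays. Its difference of 0.35 ± 0.16 did not pass (adjusted p = 0.169, 95% interval -0.02 to 0.72). Within arrays, Ssrp1 against Supt16 read 0.11, 0.01 and -0.12 in negative and 0.17, -0.42 and -0.32 in positive cells. These values overlapped and the shift of -0.19 had an exact permutation p of 0.40, the same after adjustment over the 4 pairs. The shift was -0.50 in the deposited processed values, -0.37 with positive 1 left out and -0.07 with positive 2 left out.

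Uhrf1 and Hells, the members tied to DNA methylation, did not pass either, although Uhrf1 passed in some alternatives. Uhrf1 read 4.50, 4.43 and 4.60 on negative and 4.91, 4.77 and 4.96 on positive arrays with the brighter probe (A_55_P2035286), so its groups did not overlap. Its difference was 0.36 ± 0.14 (adjusted p = 0.111), and it passed with median centring (0.55, adjusted p = 0.0477) and with a variance trend and robust fit (adjusted p = 0.0487). Under quantile normalization it was 0.09 and in the deposited processed values 0.08. The second Uhrf1 probe (A_66_P120074), which cites another transcript record, read -1.75, -1.51 and -1.60 on negative and -1.01, -1.42 and -1.08 on positive arrays, a difference of 0.45 ± 0.16 (adjusted p = 0.10). Uhrf1 A_66_P120074 passed under quantile normalization (0.55, adjusted p = 0.0472), with median centring (0.63, adjusted p = 0.0387) and in the deposited processed values (0.55, adjusted p = 0.0477). Hells read 0.83, 0.65 and 0.69 on negative and 0.67, 0.70 and 0.86 on positive arrays. With the main scaling it was the only member whose groups overlapped, with a difference of 0.02 ± 0.14 (adjusted p = 0.939, 95% interval -0.31 to 0.34). That interval leaves out differences as large as those of Asf1b and Chaf1b. Uhrf1 against Hells within arrays read -0.12, -0.01 and 0.12 in negative and 0.45, 0.28 and 0.31 in positive cells, a shift of 0.35 (exact permutation p = 0.10, 0.133 adjusted over the 4 pairs). In the deposited processed values the shift was 0.12.

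**Figure D2:**
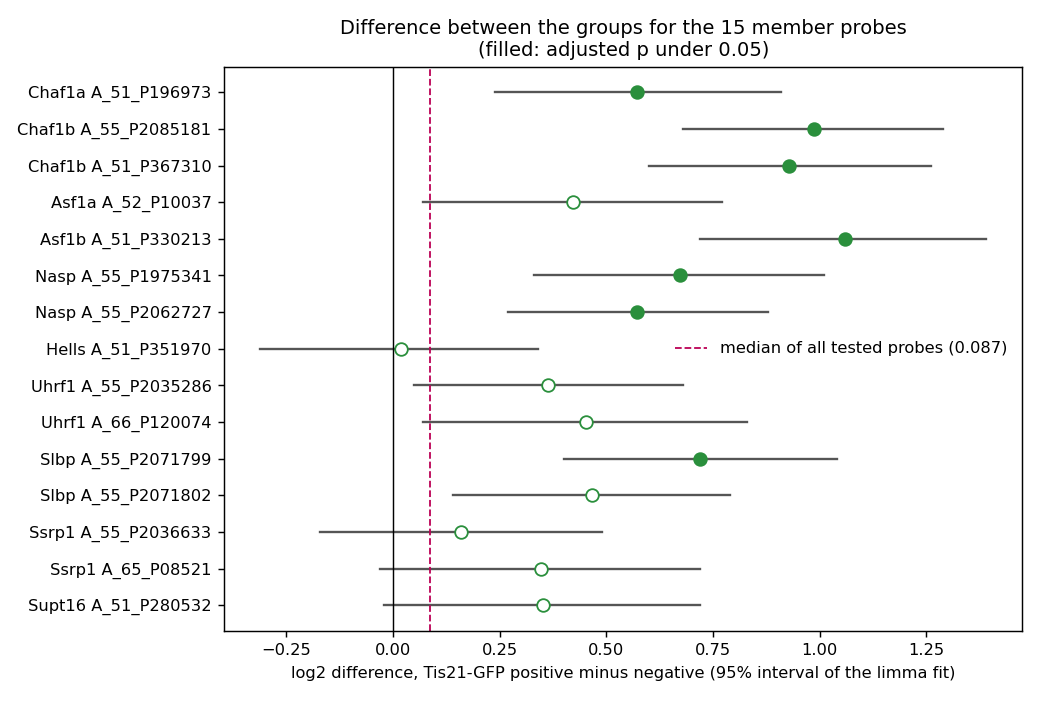
Log2 difference of each member probe (horizontal axis, Tis21-GFP positive minus negative, 3 arrays a group) with the 95% interval of the limma fit. Filled points have an adjusted p under 0.05, and the dashed line is the median of all tested probes at 0.087. Asf1b at 1.06 and the Chaf1b probes at 0.99 and 0.93 lie farthest right and Hells at 0.02 lies at 0.

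**Figure D3:**
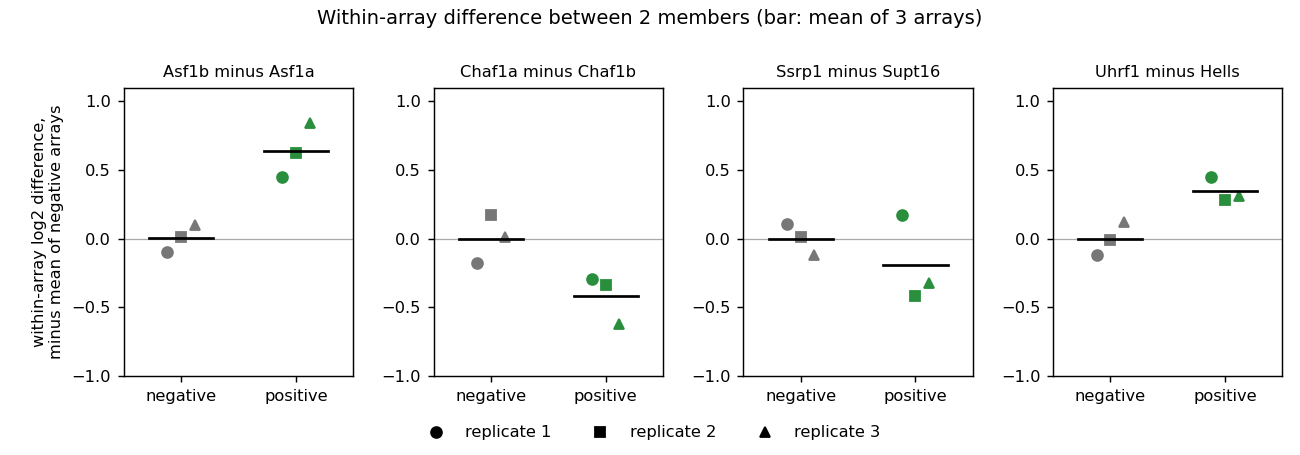
Within-array log2 difference between 2 members (vertical axis), minus its mean over the negative arrays, for 4 pairs in 3 negative and 3 positive arrays; bars are group means. The groups separate for Asf1b minus Asf1a, Chaf1a minus Chaf1b and Uhrf1 minus Hells and overlap for Ssrp1 minus Supt16.

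Promoter sequences are shown for the 5 members that rose and for Hells, whose groups overlapped, because 3 kinds of short motif known from cell-cycle promoters were searched there. RefSeq (build GRCm38.p6) holds windows from 250 bases before to 50 after the start for all 10 members. The letters were TTTCCCGC, TTTCGCGC, TTTGCCGC or TTTGGCGC for E2F-type sites, CCAAT for the CCAAT box, and TTTGAA or TTTAAA for the CHR-type element, on both strands. No letters of 1 kind are part of another. Each line gives the 150 bases before the start, on the gene's strand, with matched letters of any of these motifs in capitals. Asf1b lies at chr8:83955544-83955693 (plus strand), Chaf1b at chr16:93883751-93883900 (plus), Slbp at chr5:33652575-33652724 (minus), Nasp at chr4:116627952-116628101 (minus), Chaf1a at chr17:56040266-56040415 (plus) and Hells at chr19:38930840-38930989 (plus).
Asf1b: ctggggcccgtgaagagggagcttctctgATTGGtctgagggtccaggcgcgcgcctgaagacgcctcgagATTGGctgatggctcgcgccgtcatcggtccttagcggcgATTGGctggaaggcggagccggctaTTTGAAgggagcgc
Chaf1b: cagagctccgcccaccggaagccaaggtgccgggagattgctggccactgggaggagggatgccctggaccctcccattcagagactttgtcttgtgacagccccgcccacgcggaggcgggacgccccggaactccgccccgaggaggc
Slbp: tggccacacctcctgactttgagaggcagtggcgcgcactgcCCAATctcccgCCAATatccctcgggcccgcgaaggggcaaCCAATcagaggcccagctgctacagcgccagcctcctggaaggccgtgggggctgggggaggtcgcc
Nasp: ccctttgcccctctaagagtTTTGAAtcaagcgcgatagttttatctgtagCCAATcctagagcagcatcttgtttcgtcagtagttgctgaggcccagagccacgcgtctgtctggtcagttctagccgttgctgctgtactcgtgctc
Chaf1a: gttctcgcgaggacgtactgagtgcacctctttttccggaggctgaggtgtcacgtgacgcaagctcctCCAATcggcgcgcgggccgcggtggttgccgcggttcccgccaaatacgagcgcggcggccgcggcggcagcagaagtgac
Hells: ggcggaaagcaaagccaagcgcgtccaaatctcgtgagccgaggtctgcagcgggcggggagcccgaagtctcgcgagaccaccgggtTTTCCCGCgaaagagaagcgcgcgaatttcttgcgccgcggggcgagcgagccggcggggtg

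Asf1b, the member with the largest difference, held 4 CCAAT boxes on the reverse strand, starting 200, 121, 79 and 39 bases before the start, and TTTGAA 14 bases before it. The farthest of these boxes lies outside the bases printed. Slbp held 3 CCAAT boxes and Chaf1b held none of the letters in its window. An E2F-type match was found in 3 of 10 members, Hells (TTTCCCGC, 62 bases before the start), Uhrf1 and Ssrp1, against 2.6% of the 27025 genes with a window. None of these 3 genes was called in the main fit, although Uhrf1 passed in some alternatives. The 5 called members held none of the E2F-type letters. Only the exact letters were counted, so near matches do not appear in these counts. CCAAT was found in 6 of 10 members against 41.1% of genes, and a CHR-type match in 5 of 10 against 30.6%. A match is a description of the letters, and the absence of one says only that these letters are not in the window.

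Other genes of the same processes were taken from fixed lists and compared with all named genes, of which 9.13% were higher. Of 25 other histone chaperones, 2 rose and 0 fell, with a median difference of 0.31. They were Rbbp4, the third subunit of chromatin assembly factor 1, at 0.74 ± 0.14 (adjusted p = 0.0125) and Anp32e, a chaperone of the variant H2A.Z, at 0.72 ± 0.17 (adjusted p = 0.0257). Anp32e lost its call in 8 of 17 alternatives and Rbbp4 in 3. The count was 5 with median centring and 0 when negative 1 or negative 3 was left out. The remaining 23, the H3.3 chaperone genes Hira and Daxx among them, did not pass.

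Of 26 genes of chromatin and DNA methylation at the fork, 6 rose and 0 fell, with a median of 0.33. Pcna, the sliding clamp on which chromatin assembly factor 1 docks, rose by 0.90 ± 0.13 (adjusted p = 0.00409), Baz1b, a subunit of remodelling complexes, by 0.82 ± 0.15, Hdac2, a histone deacetylase, by 0.70 ± 0.13 and Dnmt1, the partner of Uhrf1, by 0.71 ± 0.16 (adjusted p = 0.0227). Pcna was called in all 17 alternatives, while Dnmt1 lost its call in 5, Hdac2 in 3 and Baz1b in 2. This count came to 2, 3, 3 and 1 with negative 1, positive 1, negative 2 and negative 3 left out in turn. Of 12 genes of the replicative helicase (the Mcm, Gins and Cdc45 subunits and Mcm10), 7 rose and 0 fell, with a median of 0.59. Cdc45 rose by 1.18 ± 0.15 (adjusted p = 0.00225), Mcm2, a helicase subunit that also binds H3 and H4, by 1.11 ± 0.18, Gins1 by 0.77 ± 0.14 and Mcm6 by 0.71 ± 0.14. Cdc45 and Mcm2 were called in all 17 alternatives, while Mcm6 lost its call in 5 (lowest value 0.41) and Gins1 in 3. That count was 3 under quantile normalization and in the deposited processed values, and 2, 4 and 2 with negative 1, positive 1 and negative 3 left out. The shared direction of these genes and of the chaperones is given side by side and was not tested.

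Around Slbp, 17 of 19 genes of histone mRNA processing were tested, and 1 rose and 1 fell, with a median of 0.30. Among all named genes tested, 9.13% were higher and 11.3% lower. Ccne1, the cyclin E gene whose kinase acts on the histone gene activator Npat, rose by 1.14 ± 0.15 (adjusted p = 0.00301). Lsm11, a subunit of the U7 particle that cuts histone mRNA ends, fell by 0.63 ± 0.17 (adjusted p = 0.0469), a call made in 5 of 17 alternatives and not with the replicate block (adjusted p = 0.0536). Npat and Ccne2 did not pass the background filter and were not tested. Of 41 tested replication-dependent histone genes, 5 rose, a share not far above that of all named genes, and 0 fell, with a median of 0.26. They included H3c8 at 0.91 ± 0.20 (adjusted p = 0.0194), H3c4 at 0.66 ± 0.17, H4c4 at 0.64 ± 0.17 and H3c3 at 0.63 ± 0.14. H3c4 and H4c4 each lost their call in 10 of 17 alternatives (lowest values 0.36), H3c3 in 9 (0.42) and H3c8 in 3. Histone genes are nearly identical copies, so the copy behind each probe is uncertain. The histone count was 1 with quantile normalization, 9 with median centring and 0 when negative 1 was left out. Leaving out positive 1, negative 2, negative 3 or positive 3 gave 1, 2, 1 and 1.

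**Figure D4:**
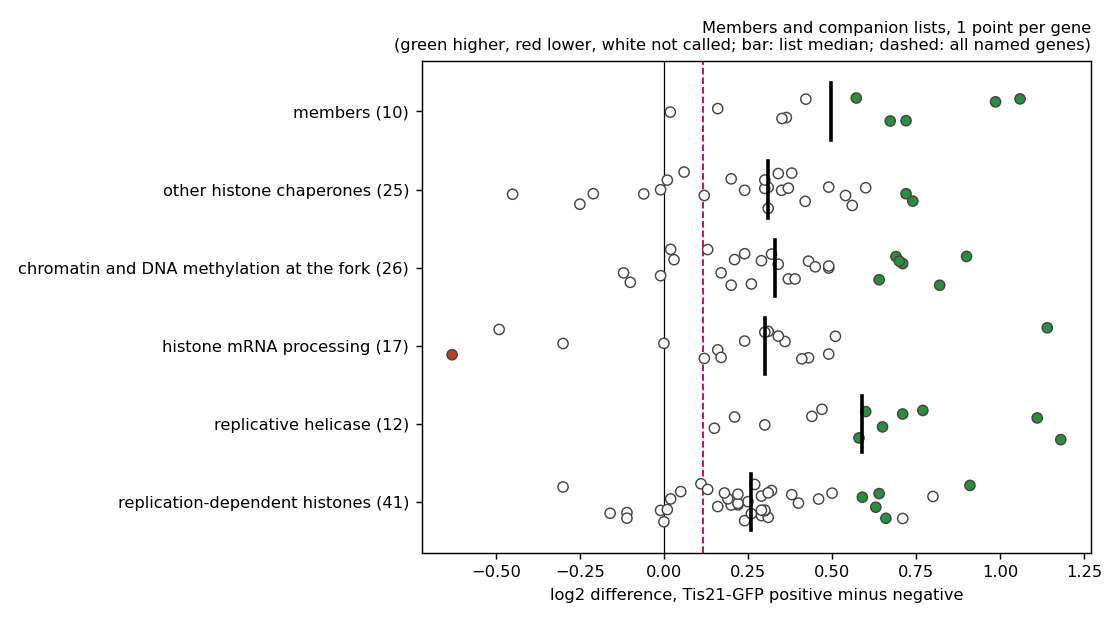
Log2 difference (horizontal axis, Tis21-GFP positive minus negative) of the 10 members and of the genes of 5 companion lists, 1 point per gene, with a bar at each list's median and the dashed line at the median of all named genes, 0.115. The medians are 0.50 for the members, 0.59 for the replicative helicase and between 0.26 and 0.33 for the other 4 lists. Under quantile normalization they are 0.37, 0.36 and between 0.09 and 0.14.

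Markers of other cells moved with the same groups, given here as summed scaled signal in multiples of the array's 75th percentile. Such a sum follows the brightest genes of its list and takes in every listed gene on the arrays, tested or not. Csf1r, whose difference of -0.90 ± 0.25 was the smallest of the microglial list, is the largest part of that list's sum. Lhx6, not called at -0.51 ± 0.22, makes up most of the interneuron sum. Microglial genes were lower in positive cells in 8 of 8 (3.71 to 7.03 in positive, 11.8 to 15.5 in negative arrays), with Trem2 at -2.83 ± 0.27. Mesenchymal genes were lower in 6 of 6 (0.474 to 0.747 against 3.39 to 7.21), and Col3a1, at least 16.6-fold lower, and Lum were not well above background on the 3 positive arrays. Col1a1 and Nid1 were well above background on 1 positive array each. Of 7 tested endothelial and pericyte genes 3 were lower. Rgs5, at least 7.09-fold lower, and Pdgfrb were not well above background on the 3 positive arrays. The sum was 9.53 to 10.6 in positive and 8.04 to 9.18 in negative arrays, most of it from Kdr. Kdr was higher by 0.45 ± 0.15 without a call (adjusted p = 0.0837), and the other tested genes of the list had differences below 0. Postmitotic neuron markers were higher in 5 of 8 genes, with Rbfox3 at 2.15 ± 0.17, and lower in 3 (137 to 171 against 76.6 to 112). The 3 lower genes were Mapt at -1.60 ± 0.22, Stmn2 at -1.56 ± 0.27 and Syt1 at -1.60 ± 0.36. The interneuron list was lower in 1 of 5 (5.85 to 7.59 against 6.76 to 11.4), Gad1 at -1.91 ± 0.32, which was well above background on 1 positive array. Of 10 listed genes of G2 and mitosis 9 were tested and 2 were higher (186 to 241 against 131 to 166), with Top2a at 0.91 ± 0.18. All 9 had differences above 0, with a median of 0.52, beside 0.50 for the member genes. The sums were 248 to 291 against 37.9 to 55.5 for intermediate progenitors, with Neurog2 at 2.48 ± 0.17, and 124 to 150 against 251 to 298 for radial glia, with Slc1a3 at -2.12 ± 0.19. With normexp background the differences of the dim genes were smaller, at -2.06 for Col3a1, -1.34 for Rgs5 and -1.73 for Trem2, so the bounds on Col3a1 and Rgs5 are bounds on the processed signal. Gad1 then stood at -0.51 and lost its call (adjusted p = 0.0951). The part of these cell types, or of the cells' place within the cycle, in the chaperone values was not tested.

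Across the 6 arrays, the genes whose profile was most like the mean profile of the members were Abcg1, Bcl7a, Soga3 and Rb1, each at a Pearson correlation of 0.999, and Serinc5 at 0.998, out of 13126 named genes compared. This is a description over 6 arrays that fall into 2 groups, and every one of these genes shares the step between the groups. These genes had differences of 1.62 (Abcg1, a sterol transporter), 1.27 (Bcl7a, a BAF complex subunit), 1.48 (Soga3), 1.55 (Rb1, the retinoblastoma gene) and 1.92 (Serinc5), each above that of any member.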

How the data were processed

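Gene expression was measured on 6 one-colour Agilent arrays. Per the file headers, spot intensity was read with Feature Extraction 10.7.1.1 and deposited after background correction and detrending, without scaling between arrays. Flags of background, saturation and outliers from the same files are the other values used per the file headers. A table of processed log2 values that the authors deposited has columns that share 1 median of 4.661 and correlated with log2 scanner intensity at 0.9995 or above. Their normalization is not stated and was taken from the values to be close to quantile normalization.

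Control spots were left out, as were 118 to 191 outlier spots per array among the others. None of these was of a member probe, and 0 non-control spots were saturated. Replicate spots were averaged as log2 values and each array's 75th percentile was subtracted. The 28922 probes well above background on all 3 arrays of a group were tested (51.2% to 56.2% of probes per array were well above background). The number of arrays limits the precision. Accessions were matched to the RefSeq gene table of GRCm38.p6, naming 26370 of 55681 probes. A gene was represented by its brightest tested probe. limma 3.58.1 in R 4.3.3 (group only, Benjamini-Hochberg adjustment over all tested probes) gave differences with moderated SE. The fit was also run on values simulated independently for each probe and array. That run does not bear on how the results depend on scaling. Every probe was fitted, not 1 per gene, because each member probe is described.

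The members and lists were chosen with earlier results of these data known. Besides the members, the genes named were Btg2, up to 4 called genes of each companion list with the smallest adjusted p, the called gene with the smallest adjusted p of each cell type list, and 5 genes by likeness. Hira, Daxx, Npat, Ccne2, Lum, Csf1r, Kdr, Lhx6, Mapt, Stmn2, Syt1, P2ry12, Cx3cr1, Col1a1, Nid1 and Pdgfrb were named after their values were seen. Where a probe was on no array of the dimmer group well above background, the fold is a bound: the brighter mean over, in the dimmer group, the mean of whichever was higher on each array, the probe or the lowest signal well above background. The replicate numbers of the labels pair the arrays: deviations from group means correlated at 0.17, 0.12 and 0.35 between same-numbered arrays. The submitters describe the sets as independent experiments on embryos of several dams, and p-values measure the spread between the 3 sets kept. All arrays lay on 1 slide. Alternatives covered scaling, background, filter, probe choice, variance model, block and leaving out each array. The scanner files hold no mean spot signal, so normexp (offset 50) used the median signal. A planned comparison of the Asf1a and Asf1b proteins was not run.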

Additional observations from a re-analysis of the deposited data

How the results depend on the processing

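Asf1b and Chaf1b kept their direction and their call in all 17 alternatives, with differences of 0.87 to 1.24 and 0.74 to 1.17. Chaf1a stayed above 0 in all 17 and was called in 7 of them. The number of member genes called was 3 under quantile normalization, 3 in the deposited processed values and 2 with no filter on dim probes, and ranged from 2 to 5 when 1 array was left out. Member probes called numbered 3 with no filter and 3 to 6 when 1 array was left out. Hells stood at -0.04 under quantile normalization, -0.15 with the percentile over detected probes and -0.04 in the deposited values, and at -0.04 to 0.07 when 1 array was left out. Ssrp1 stood at -0.13, -0.01 and -0.13 in the first 3 of these.

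Of the other histone chaperones, the genes higher numbered 1 under quantile normalization, in the deposited values and with the percentile over detected probes, 5 with median centring, with 1 probe per gene, with a variance trend and with probe means, 4 with normexp, 0 with no filter and 0 to 5 when 1 array was left out. The genes lower numbered 1 under quantile normalization, in the deposited values and with normexp. For chromatin and DNA methylation at the fork the genes higher were 1 with no filter and 1 to 5 when 1 array was left out. For histone mRNA processing they were 4 with median centring and probe means and 3 with normexp, 1 probe per gene and a variance trend. The genes lower there were 0 under quantile normalization, in the deposited values, with median centring, normexp, no filter, the replicate block or the array row as a block, 2 with a variance trend and 0 to 1 when 1 array was left out. For the replicative helicase the genes higher were 3 under quantile normalization and in the deposited values, 4 with the percentile over detected probes, 2 with no filter and 2 to 7 when 1 array was left out. For histones they were 1 under quantile normalization, in the deposited values and with the percentile over detected probes, 9 with median centring, 8 with a variance trend, 3 with the array row as a block, 0 with no filter and 0 to 4 when 1 array was left out. Median differences moved as well, from 0.32 to 0.68 for the members and from 0.36 to 0.77 for the helicase over 17 alternatives. They ran from 0.11 to 0.49 for the other histone chaperones and from 0.11 to 0.51 for chromatin and DNA methylation at the fork. For histone mRNA processing they ran from 0.13 to 0.48 and for histones from 0.09 to 0.44. The cause of these changes was not tested.

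With the replicate block, which pairs same-numbered arrays, Lsm11 stood at -0.63 with an adjusted p of 0.0536 and lost its call, the histone genes higher went from 5 to 4, and the calls over all probes went from 4765 to 5265. The counts of members called did not change. Over all probes, 4765 were called, against 2269 with no filter and 2086, 2822 and 2257 with negative 1, negative 2 and negative 3 left out. With 3 arrays a group, permuted without regard to replicate number, the comparisons of member pairs could not go below a p of 0.10.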

Other observations

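Over all named and tested genes with a RefSeq promoter window, 479 held the E2F-type letters and 10003 did not. Of the first, 12.9% were higher and 7.72% lower in Tis21-GFP positive cells, with a median log2 difference of 0.27. Of the second, 8.95% were higher and 10.9% lower, with a median of 0.11. These shares were computed after the members' windows had been seen, and the gap between them was not tested.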
